A study of Homo sapiens with 17 samples.

Results

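A set of 2864 autosomal regions of HCC1954 cells had an H3K27ac peak in each of the 2 NC1235 libraries and none in the 2 Si1235 libraries. H3K27ac is the acetylation of a lysine in the tail of histone H3. They were found by merging the overlapping or touching peaks of the 4 H3K27ac peak lists into 50200 regions, of which they make up 5.71%. The lost regions were therefore chosen by the H3K27ac peak calls themselves, and the absence of H3K27ac peaks in Si1235 cells is the rule, not a result. HCC1954 is an established HER2-positive breast cancer cell line. Both arms were transfected with antisense oligonucleotides and fixed 72 hours later. The arms are Si1235 and NC1235 as the labels write them. The labels spell out neither name, while the series' title names the long noncoding RNA LINC01235. H3K27ac, the histone variant H2AZ and H3K36me3 had 2 libraries per arm, H3K9ac had 1 per arm, and a ChIRP library, which maps chromatin pulled down with an RNA, had the title NC1235 only. No expression was measured here, so the knockdown could not be checked, and no label says that the replicates came from separate cultures. P-values therefore cover the spread between libraries, part of which may be technical.

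H3K27ac is laid down by the acetyltransferases EP300 and CREBBP and marks active promoters and enhancers. H3K9ac accompanies it mainly at active promoters, and H2AZ replaces H2A in nucleosomes beside gene starts and at enhancers. H3K36me3 is set behind elongating RNA polymerase II and covers the bodies of transcribed genes, where enhancers lying in introns can sit within it. In breast epithelium distal H3K27ac sites differ strongly between luminal, basal and mesenchymal-like cells.

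Few of the lost regions lay at promoters, and those that did ranged from CG-poor to CG-rich. RefSeq promoter windows of 300 bases (250 before and 50 after an annotated start, GRCh38.p14) overlapped 78 lost regions in 91 windows of 84 genes. Their median of 15 CG dinucleotides (25th to 75th percentile 4 to 30) was near the 16 (5.5 to 36.5) at gained regions and the 14 (4 to 28) of all windows, and below the 26 (18 to 34) at kept regions. The lost regions in 55 of these windows had an H2AZ peak in all 4 H2AZ libraries, and the windows held a median of 28 CG dinucleotides (25th to 75th percentile 16.5 to 35). In 18 windows no library had an H2AZ peak in the region, and the median was 1.5 CG (1 to 3.75). The other 18 had it in some of the libraries, with a median of 5 CG (3 to 9.5). Both H3K9ac libraries had a peak in the region for 53 of the 55, 5 of the 18 and 10 of the 18 windows. A set of 4 windows shows these types, with every CG in capitals, written 5′ to 3′ along the gene's strand. CORO2B and CD9 stand for the CG-poor type, and MCM10 and MAPRE3 for the CG-rich one with H2AZ in every library.
CORO2B: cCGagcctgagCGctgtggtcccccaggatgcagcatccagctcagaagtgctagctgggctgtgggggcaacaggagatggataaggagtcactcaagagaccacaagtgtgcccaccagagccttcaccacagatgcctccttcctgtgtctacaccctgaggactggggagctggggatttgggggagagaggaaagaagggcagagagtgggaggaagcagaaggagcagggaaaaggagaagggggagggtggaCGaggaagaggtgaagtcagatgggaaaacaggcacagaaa
CD9: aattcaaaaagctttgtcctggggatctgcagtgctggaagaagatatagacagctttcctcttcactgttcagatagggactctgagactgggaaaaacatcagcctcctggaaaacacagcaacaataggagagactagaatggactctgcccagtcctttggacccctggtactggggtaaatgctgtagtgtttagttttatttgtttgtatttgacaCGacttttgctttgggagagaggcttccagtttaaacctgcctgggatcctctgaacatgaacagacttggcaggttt
MCM10: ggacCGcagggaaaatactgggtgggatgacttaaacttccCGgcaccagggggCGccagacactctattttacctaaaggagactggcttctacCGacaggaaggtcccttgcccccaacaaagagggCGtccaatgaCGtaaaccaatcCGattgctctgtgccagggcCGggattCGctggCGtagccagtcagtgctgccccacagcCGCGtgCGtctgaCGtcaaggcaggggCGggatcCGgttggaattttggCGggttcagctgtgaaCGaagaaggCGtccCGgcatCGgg
MAPRE3: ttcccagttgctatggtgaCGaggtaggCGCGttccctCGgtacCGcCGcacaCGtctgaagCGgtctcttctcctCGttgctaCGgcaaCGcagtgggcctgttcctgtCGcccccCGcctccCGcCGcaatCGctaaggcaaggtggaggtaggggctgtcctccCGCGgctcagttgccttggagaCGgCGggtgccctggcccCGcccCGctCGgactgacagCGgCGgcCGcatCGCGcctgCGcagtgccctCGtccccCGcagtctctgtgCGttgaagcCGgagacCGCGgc
The CORO2B window (chr15:68641253-68641552, plus strand) holds 3 CG and the CD9 window (chr12:6225889-6226188, plus strand) holds 1. The MCM10 window (chr10:13161308-13161607, plus strand) holds 21 and the MAPRE3 window (chr2:26970387-26970686, plus strand) holds 35. These sequences are the reference, not the cell line's own.

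**Figure D1:**
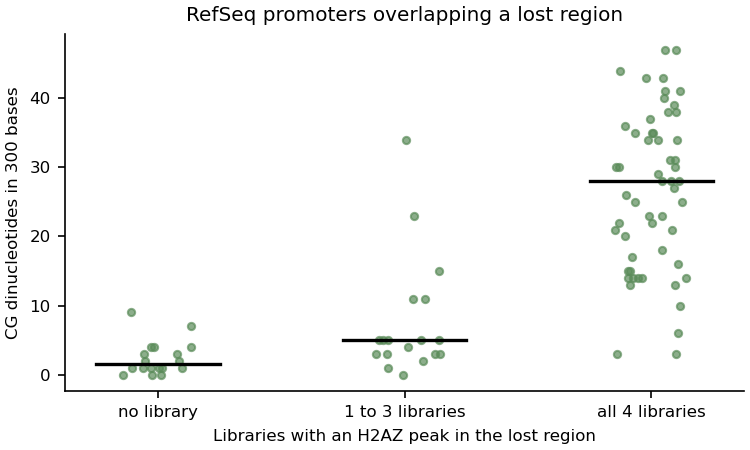
CG dinucleotides in each of the 91 RefSeq promoter windows of 300 bases that overlap a lost region (points), by the number of H2AZ libraries with a peak in that region; black lines are medians. Windows over regions with H2AZ in all 4 libraries have a median of 28 CG, against 5 where some libraries had it and 1.5 where none had.

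The lost regions were narrow and weakly enriched. Their median width was 487 bp (25th to 75th percentile 378 to 695, range 235 to 3025), close to the 479 bp of the 1980 gained regions, which had a peak in both Si1235 lists and neither NC1235 list. The 32603 regions kept in all 4 libraries had a median of 1808 bp. Together the lost regions covered 1.71 Mb of the 81.9 Mb under any H3K27ac peak. The fold enrichment over background that the authors' peak caller gave had medians of 5.34 and 5.62 in the 2 NC1235 libraries, reaching 21.1 and 22.3. Kept regions had medians of 15.5 and 15.6 in the same libraries. In the weaker of its 2 NC1235 lists, a lost region had a median −log10 q of 6.60. The lists end at about 2, and the value was at least 2.5 in 98.0% of lost regions and at least 5 in 68.1%. It was at least 10 in 557 regions (19.4%) and at least 20 in 76 (2.65%).

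Just outside the rule were 2178 regions with a peak in both NC1235 lists and in 1 Si1235 list, where the −log10 q of the Si1235 peak had a median of 5.87 and the median width was 591 bp. A further 3805 regions had a peak in 1 NC1235 list only, with a median −log10 q of 5.09 and a median width of 285 bp. Within replicate number 1, 5961 regions had a Si1235 peak alone and 5522 an NC1235 peak alone. Within number 2 the counts were 5242 for Si1235 and 8196 for NC1235, so the direction of the excess differed between the 2 numbers. One property of the files moved with the arms. The pileups behind 1500 weak peaks per list came out as whole reads in 100.0% of cases in 13 of the 15 lists, both Si1235 H3K27ac lists among them. In the NC1235 H3K27ac lists they did so in 0.933% and 9.67% of cases, as scaled coverage gives. This scaling and the arm cannot be told apart. In a bulk ChIP, fewer cells with the mark and less mark per cell cannot be told apart either.

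Most lost regions lay away from gene starts. A known gene start lay within 1 kb of 139 of the 2864 (4.85%), against 6.92% of gained, 30.9% of kept and 22.5% of all regions. For genes with no known start in the table used, a region within 1 kb of either end was also counted as at a gene start, although one end is not the start. This gave 208 lost regions (7.26%), against 11.5% of gained, 38.1% of kept and 28.3% of all regions. The 6516 kept regions under 1 kb wide had one in 29.7%. The bodies of protein-coding genes held 1186 lost regions (41.4%), and 409 (14.3%) lay only within lncRNA genes. The remaining 1061 (37.0%) were outside both. Among all regions these shares were 35.5%, 9.01% and 27.2%. Distances were taken to the nearest known start or either end of a gene without one. Their median was 19484 bp for lost, 13156 bp for gained, 5587 bp for kept and 8922 bp for all regions. Location was not used to choose the regions, but peak strength entered through the calls, and no test of location was made.

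**Figure D2:**
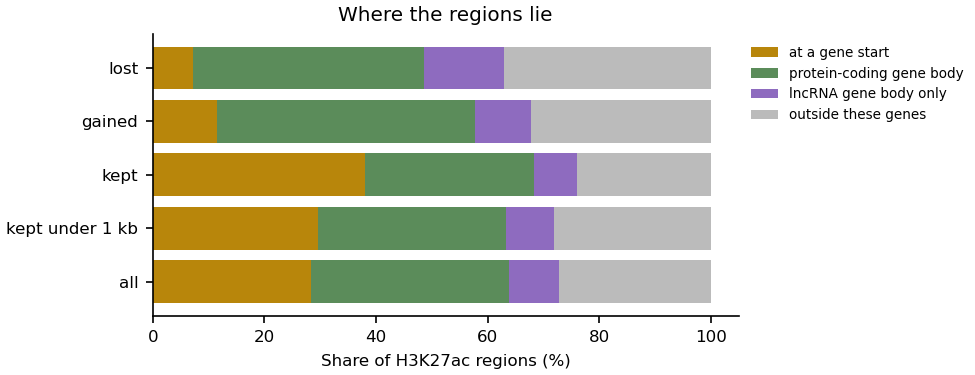
Share of lost, gained and kept H3K27ac regions, of kept regions under 1 kb wide and of all regions that lie at a gene start (a known start, or either end of a gene without one), in a protein-coding gene body, in an lncRNA gene body only, or outside these genes. The share at a gene start is 7.26% of lost regions, against 11.5% of gained and 38.1% of kept regions.

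Some lost regions lay close to an H3K27ac peak of a Si1235 library, and others stood far from any. Such a peak may be in 1 Si1235 list only or belong to a gained region. The nearest H3K27ac peak of either Si1235 library was a median of 5649 bp away (10th to 90th percentile 313 to 63397 bp). It was within 1 kb of 742 lost regions (25.9%), 1 to 10 kb from 987 (34.5%), 10 to 50 kb from 759 (26.5%) and over 50 kb from 376 (13.1%). Median width hardly varied across these distances, from 462 bp within 1 kb to 520 bp at 1 to 10 kb. The median lower fold enrichment was 4.78 for the nearest and 5.16 for the farthest regions.

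H2AZ was the mark whose peaks were fewer in Si1235 cells at the lost regions. Peaks of H2AZ touched 25.6% and 19.3% of the 2864 regions in the Si1235 libraries, against 35.6% and 30.4% in the NC1235 libraries. The arms did not overlap. The mean share was 22.4% ± 4.42 in Si1235 and 33.0% ± 3.73 in NC1235 cells (SD, n = 2 each), a difference of −10.58 percentage points. It was −10.1 points between the libraries numbered 1 and −11.1 between those numbered 2. An exact two-sided permutation test of the 4 libraries gave p = 0.333, the smallest they allow, so the design cannot reach 0.05. Over all 50200 regions the difference was −2.32 points (exact permutation p = 0.667), and over kept regions −1.69 (exact permutation p = 0.667). Gained regions differed by 3.31 points in the other direction (exact permutation p = 0.667). The H2AZ lists were not part of the rule, but all come from the same 2 arms, and the difference between classes was not tested.

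Region by region, H2AZ peaks in the 2 NC1235 libraries but in none of Si1235 were found at 160 lost regions (5.59%). Among all H3K27ac regions that pattern was found at 2.14%. The opposite pattern was found at 16 lost regions (0.559%), against 1.05% of all. A further 434 lost regions (15.2%) had H2AZ in all 4 libraries and 1646 (57.5%) in none, while 45.2% of all regions had it in all 4 and 35.1% in none. The 434 included 84 of the regions at a gene start (19.4% of the 434). In the 160 with NC1235 peaks alone that share was 5.00%. The mean H2AZ cover of a lost region was 17.3% and 12.8% of its length in Si1235 libraries, against 25.4% and 21.2% in NC1235 libraries.

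The part of a region under H2AZ peaks was also tested with limma over all H3K27ac regions with a mean cover of at least 5%. None of the 1172 lost regions among the 31021 tested passed a Benjamini-Hochberg adjusted p of 0.05, and neither did any other region (0.0% called). On simulated cover with the spread of these libraries the same fit called none of the large changes. The absence of calls therefore cannot show that cover was unchanged. At an unadjusted p under 0.05 there were 215 lost regions, 196 lower and 19 higher in Si1235 cells. Over all regions there were 2739, 1698 lower and 1041 higher. The lowest limma adjusted p was 0.0764. It belonged among others to the 5 regions with the largest H2AZ difference. One 188925 bp from KBTBD8 (chr3:66809046-66809382), inside the lncRNA gene LOC105377144, was wholly under H2AZ peaks in both NC1235 libraries and had none in either Si1235 library. The same held for regions in PLSCR5, a member of the phospholipid scramblase family, 3647 bp from TMEM207 and 131552 bp from SPTSSA, a subunit of serine palmitoyltransferase. The fifth, inside DRD2, the dopamine D2 receptor gene (chr11:113447160-113447827), had cover of 0.0% and 0.0% in Si1235 against 100.0% and 97.5% in NC1235 libraries. H3K9ac covered 88.5% of that DRD2 region in the Si1235 library and none of it in the NC1235 library. The TMEM207 region was the reverse, with none in Si1235 and 53.9% in NC1235. The KBTBD8, PLSCR5 and SPTSSA regions had no H3K9ac in either arm.

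Some lost regions had more H2AZ in Si1235 cells. A stretch inside PDE4D, a cyclic AMP phosphodiesterase (chr5:59317695-59318028), was covered to 100.0% and 88.0% in Si1235 and not at all in NC1235 libraries (limma adjusted p = 0.102). A region in PALMD (chr1:99650386-99650803) had 88.3% and 52.6% cover in Si1235 and none in the NC1235 libraries (limma adjusted p = 0.395). Both differences are opposite to those at DRD2 and KBTBD8, and none of these passed the test.

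**Figure D3:**
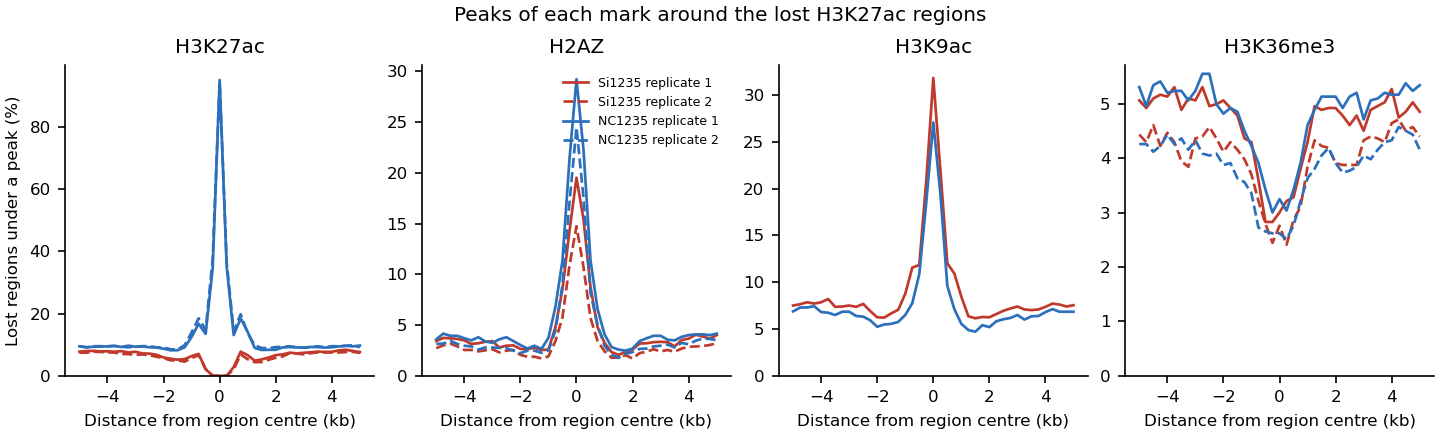
Percent of the 2864 lost regions that lie under a peak at each distance from the region centre (kb, in steps of 250 bp), for H3K27ac, H2AZ, H3K9ac and H3K36me3; red, Si1235, and blue, NC1235; solid, replicate 1, and dashed, replicate 2. The H3K27ac gap in Si1235 is the rule itself, and both H2AZ curves of Si1235 peak below both of NC1235. The H3K9ac curve of Si1235 peaks above that of NC1235, and H3K36me3 dips around the centre in all 4 libraries.

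H3K9ac peaks were more frequent in the Si1235 library, opposite to H3K27ac. They touched 1139 lost regions (39.8%, 95% exact binomial interval 38.0 to 41.6) in Si1235 and 975 (34.0%, 32.3 to 35.8) in NC1235 cells. With 1 library per arm there is no replicate check and no test, and these intervals cover counting error only, over regions that are not independent. Over all regions the shares were 71.9% in Si1235 and 71.7% in NC1235, and over gained regions 39.1% and 42.6%. An H3K9ac peak in Si1235 alone was found at 441 lost regions (15.4%, against 7.19% of all). One in NC1235 alone was found at 277 (9.67%, against 6.92% of all). Both arms had one at 698 lost regions and neither at 1448 (50.6%). Thus 1139 of the regions without an H3K27ac peak in either Si1235 library had H3K9ac there, and 698 of these also had it in NC1235. The peak names inside both H3K9ac lists give another residue than the label, and their antibody identity was not tested. Of the H3K9ac peaks, 67.0% to 69.6% overlapped a peak of any one H3K27ac list.

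The shares of H2AZ and H3K9ac varied with the distance to the nearest Si1235 H3K27ac peak. Of lost regions 1 to 10 kb from a Si1235 H3K27ac peak, 44.8% had H3K9ac in Si1235 and 37.6% in NC1235. Over 50 kb from such a peak the share was 30.6% in both arms. For H2AZ the shares beyond 50 kb were 32.2% and 26.6% in Si1235, against 48.7% and 42.0% in NC1235 libraries. Within 1 kb they were 17.4% and 13.1%, against 22.8% and 19.5%. The H2AZ gap between arms was present in each distance band. At the 160 regions with H2AZ in NC1235 alone, 51 had H3K9ac in Si1235 and 50 in NC1235. Differences between bands were not tested.

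**Figure D4:**
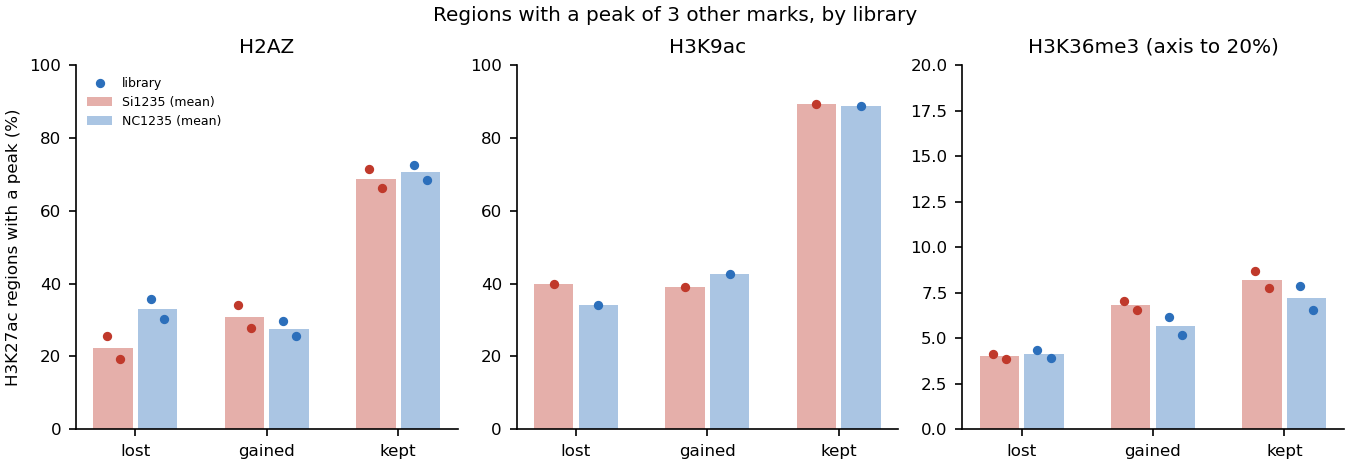
Percent of lost (n = 2864), gained (n = 1980) and kept (n = 32603) H3K27ac regions with a peak of H2AZ, H3K9ac or H3K36me3; bars are means of the libraries of an arm, Si1235 in red left of NC1235 in blue, and points are libraries (1 per arm for H3K9ac; the H3K36me3 axis ends at 20%). Lost regions have H2AZ in 25.6% and 19.3% in Si1235 against 35.6% and 30.4% in NC1235 libraries, while their H3K9ac share is 39.8% in Si1235 against 34.0% in NC1235.

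H3K36me3 peaks were rare and their share differed by less than the spread between libraries. They touched 4.16% and 3.84% of lost regions in Si1235, against 4.36% and 3.91% in NC1235 libraries, and the arms overlapped. The difference of the means was −0.14 points (exact permutation p = 0.667). No library had it at 2698 lost regions (94.2%). It was in both NC1235 libraries alone at 8 lost regions (0.279%, against 0.203% of all). It was in both Si1235 libraries alone at 5 (0.175%, against 0.576%). Of 154 lost regions among the 3607 tested with limma none had an adjusted p under 0.05, and 2 other regions did (0.0554% called). At an unadjusted p under 0.05 there were 14 of the 154 and 365 of the 3607. Regions in coding gene bodies carried most of it, with 9.27% and 8.43% in Si1235 against 9.70% and 8.60% in NC1235 libraries. The largest difference downward was at ASPM, a gene of the mitotic spindle pole, and the largest upward at LSM3, a gene of an Sm-like RNA-binding protein. The ASPM region (chr1:197130861-197131406) had 0.0% cover in both Si1235 libraries and 100.0% in both NC1235 libraries. The LSM3 region (chr3:14196843-14197318) had 100.0% and 100.0% in Si1235, against 2.73% and 41.0% in NC1235. A region in EFR3A, a plasma membrane scaffold gene (chr8:131955945-131956733) had 75.4% and 72.2% in Si1235, against none in NC1235 libraries. ASPM and EFR3A had a limma adjusted p of 0.161 and LSM3 one of 0.371, so none passed. The limit of this fit given for H2AZ holds here too.

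The ChIRP library had a peak at 187 lost regions (6.53%), fewer than the 11.0% of all regions and near the 5.77% of kept regions under 1 kb. The strongest of these peaks were 109948 bp from ACTL7B (fold enrichment 103.0), in CAPSL (87.3) and 176179 bp from PELI2 (82.6). None of these 3 regions had H3K36me3, and the ACTL7B one had H2AZ in the Si1235 libraries alone, at 31.6% and 6.09% cover. Within 100 kb of LINC01235 on chromosome 9 none of the 4 H3K27ac regions was lost. The nearest lost region was 155196 bp away (chr9:13586526-13587454), with fold enrichments of 4.12 and 4.59 in NC1235. Its H2AZ cover was 100.0% and 97.2% in Si1235, against 100.0% and 89.9% in NC1235.

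Of the 10 lost regions with the strongest H3K27ac in NC1235 cells, 6 were intergenic, against 37.0% of all lost regions, and 5 had H2AZ in no library, against 57.5% of them. Their fold enrichments are the values the ranking used and are given as a description. The highest was in the lncRNA gene FAM157B near the end of chromosome 9 (chr9:138221532-138221856), with 21.1 and 20.6 in the NC1235 libraries. H3K9ac covered none of it in Si1235 and 98.2% in NC1235. FAM157B belongs to a family of near-identical copies, as does POM121C, a nuclear pore gene (chr7:75442438-75443031; 16.3 and 16.1), so their reads may be split between copies. The second, 129852 bp from RAPGEF2, an exchange factor of Rap GTPases (chr4:159490025-159491044), had 17.9 and 22.3. There H3K9ac covered 54.3% in Si1235 and none in NC1235. A region 55687 bp from a start of MIR205HG, the host gene of a microRNA of basal epithelium (chr1:209484507-209485928), had 16.3 and 15.2. H3K9ac covered 31.9% of it in Si1235 and none in NC1235, and no library had H2AZ.

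At 24120 bp from GEM, a small GTPase gene (chr8:94286439-94287893), both marks were missing together. H3K27ac had fold enrichments of 14.8 and 13.4 in NC1235. H2AZ cover was 0.0% in both Si1235 libraries, against 49.9% and 67.0% in NC1235 (limma adjusted p = 0.219), while H3K9ac was alike, 30.9% in Si1235 and 27.6% in NC1235. A region 121843 bp from OXR1 and at an end of the lncRNA gene LOC124902003 (chr8:106146303-106148335; 13.3 and 15.3) had H2AZ cover of 0.0% in both Si1235 libraries, against 26.5% and 17.3%. The region nearest to IFNG, the interferon gamma gene (chr12:68132214-68133016), stood 26724 bp from its start. It had fold enrichments of 13.2 and 13.0, and no Si1235 H3K27ac peak lay within 198820 bp. Its H2AZ was in 1 library only, the first of NC1235 (50.9% cover). The other 3 of the 10 strongest lay 437629 bp from KIF20B, in LINC01362 and 127347 bp from PTPRZ1. Both the LINC01362 and the PTPRZ1 region carried none of the other marks in any library.

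At coding gene starts the picture was different, since most of the strongest lost regions kept H2AZ and H3K9ac in both arms. MAPRE3 encodes a microtubule plus-end protein, and its start region (chr2:26970615-26970893) had H3K27ac fold enrichments of 10.2 and 8.59 in NC1235. H2AZ and H3K9ac covered 100.0% of it in every library of both arms. The same full cover was seen at starts of SPPL3, an intramembrane protease, MPP7, a polarity scaffold, SLCO3A1, an organic anion transporter, FZD4, a Wnt receptor, and NINL, a centrosomal protein. At the last 5, the nearest Si1235 H3K27ac peak was 401, 72153, 419, 267 and 3439 bp away. S1PR5, a sphingosine-1-phosphate receptor, had H2AZ cover of 100.0% and 66.5% in Si1235, against 100.0% in both NC1235 libraries.

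A further 3 of the 10 starts differed from these. CORO2B, a coronin that binds actin, had neither mark in Si1235 cells (chr15:68639832-68641612, fold enrichments 7.58 and 10.1). Its H2AZ cover was 0.0% in both Si1235 libraries, against 29.8% and 28.5% in NC1235 (difference −29.14 points, SE 3.69, limma adjusted p = 0.215). No library had H3K9ac there. CD9, a tetraspanin of epithelial cells (chr12:6225822-6227140, 10.8 and 9.92), had H2AZ in no library. H3K9ac covered 96.4% of it in Si1235 and 80.9% in NC1235. H3K36me3, absent from the CORO2B region, covered 100.0% and 30.7% of the CD9 region in Si1235, against 79.7% and 77.9% in NC1235 libraries. A Si1235 H3K27ac peak lay 935 bp from the CD9 region and 127548 bp from the CORO2B one. LOC124902325 had no H2AZ either, with H3K9ac at 43.8% in Si1235 and 21.4% in NC1235. The CORO2B and CD9 windows are the CG-poor sequences printed above.

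Motifs were counted in the promoter windows on both strands. TGANTCA, the AP-1 site, was in 7.69% of the 91 windows at lost regions, against 16.5% at gained, 5.55% at kept regions and 7.67% of all 33725 windows. CATTCC, the TEAD site, was in 18.7%, against 8.86% at gained, 11.4% at kept regions and 14.04% of all. CCGGAA, an ETS core, was in 6.59%, against 30.6% at kept regions and 17.3% of all. GGGCGG, the SP and KLF site, was in 53.8%, against 63.3% at gained, 68.6% at kept regions and 45.0% of all. AGATAA for GATA was in 9.89%, against 12.7% at gained, 4.82% at kept regions and 10.4% of all. TGTTTAC for FOX (1.10% against 3.45% of all) and the GRHL (1.10% against 0.231%) and NFI (0.0% against 0.0297%) sites had few matches. The shares at lost regions rest on 7 windows for AP-1, 17 for TEAD, 6 for ETS and 9 for GATA. A match describes letters in the window, and most lost regions have no such window.

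Along the chromosomes many lost regions lay close to another. Another lost region lay within 1 kb of 14.5%, within 10 kb of 24.2%, within 50 kb of 38.2% and within 200 kb of 60.6%. For the less numerous gained regions the shares were 7.98%, 15.6%, 27.02% and 47.8%. The classes differ in size, and their spacing was not tested against each other. The next H3K27ac region along the chromosome was also lost for 13.8% of lost regions, against their 5.71% of all regions. For gained regions it was also gained for 8.94%, against 3.94%. Runs of at least 2 lost neighbours held 722 regions (25.2%), and 50 runs had at least 3. Merging H3K27ac peaks up to 500 bp apart lowered the share with another lost region within 50 kb to 23.1%.

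The share of regions lost differed by chromosome. It was highest on chromosomes 8 (7.31%), 3 (7.18%) and 6 (7.08%). It was lowest on the gene-dense chromosomes 19 (2.71%), 17 (2.95%) and 22 (3.27%). Gained regions made up 3.34% of chromosome 8 and 4.75% of chromosome 19, so on chromosomes 17, 19 and 22 gained regions outnumbered lost ones.

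**Figure D5:**
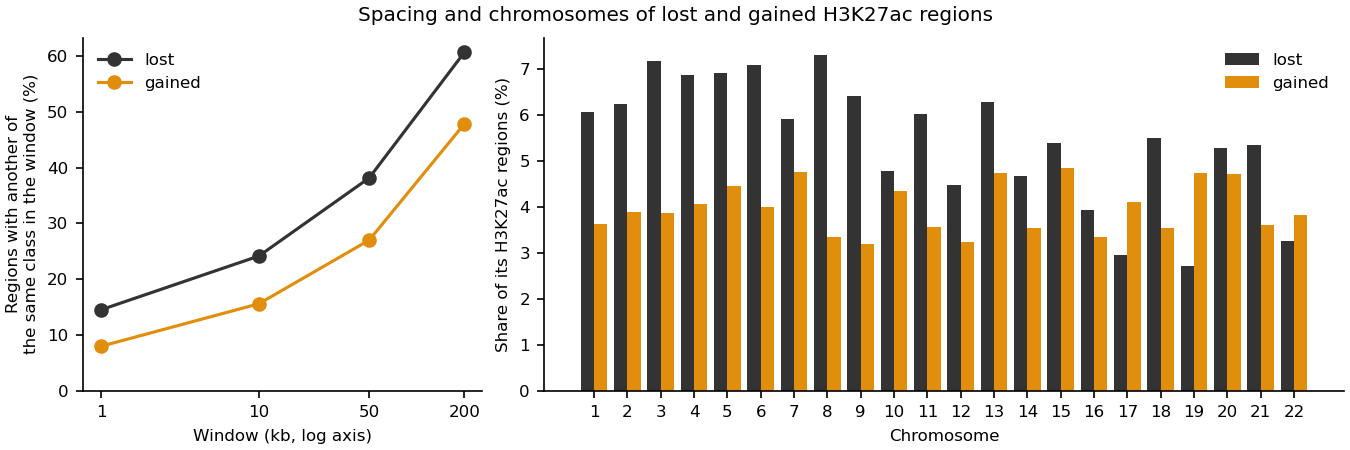
Left, percent of lost (dark) and gained (orange) regions with another region of the same class within 1, 10, 50 or 200 kb (log axis). Right, percent of each autosome's H3K27ac regions that were lost or gained; chromosome 8 has the highest lost share, 7.31%, and chromosome 19 the lowest, 2.71%.

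Lost regions were spread over 1349 of the 2511 bins of 1 Mb that hold any H3K27ac region, and 103 bins with at least 5 held 610 of them. The fullest, at 107 to 108 Mb of chromosome 8, had 14 lost regions of 29 in all. At ANGPT1, which encodes a vascular growth factor, 6 of 11 regions were lost. All 6 had H3K9ac in Si1235 and 1 had it in NC1235, while H2AZ was at 5 and 4 in Si1235 and at 5 and 5 in NC1235. A bin on chromosome 5 at and beyond PIK3R1, the regulatory subunit of PI3-kinase, had 10 of 45 regions lost. The next ones were at SAMD12 on chromosome 8 (9 of 47), around SPON1 and FAR1 on chromosome 11 (9 of 33), and in CFAP20DC-DT on chromosome 3 (8 of 25).

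Long noncoding genes led the count per gene. LINC01362 on chromosome 1 had 8 of its 14 regions lost, and none of the 14 was gained. A group of 6 of them followed each other without any other H3K27ac region between (chr1:82934567-83035478). H2AZ was at 2 and 1 of these 6 in Si1235, against 4 and 2 in NC1235. The 6 neighbours 127290 bp from RAPGEF2 (chr4:159487463-159498743) had H3K9ac at 4 in Si1235 and at 1 in NC1235. A run of 5 lay over SNCAIP, the gene of the synuclein-interacting protein synphilin. That run had H3K9ac at 0 of its regions in Si1235 and at 1 in NC1235. CFAP20DC-DT had 8 of 24 regions lost, MSC-AS1 7 of 16 and SAMD12 7 of 28. LOC105377407, LOC105379013 and LOC105375751, all lncRNA genes, had 6 each, as did RIMS1, a presynaptic scaffold gene (6 of 14), and HIVEP3, a zinc finger gene (6 of 31). Long genes have more room for regions, and counts were not corrected for length.

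Genes with a lost region inside or within 10 kb numbered 1399 of 18973 protein-coding genes (7.37%) and 863 of 17525 lncRNA genes (4.92%). Gene groups were read against the 5.71% of all regions that were lost, and no difference from that share was tested. Of the EMT and mesenchymal list, 3 of 16 genes had a lost region, with 7 of 57 regions lost (12.3%). TGFB2, a transforming growth factor beta ligand, had 4 of its 14 regions lost. All 4 had H3K9ac in Si1235 and 2 in NC1235, H2AZ was at none, and H3K36me3 was at 3 and 3 in Si1235 and 3 and 2 in NC1235. TNC, the matrix protein tenascin C, had 2 of 9, and TGFBR2, the receptor of that ligand, 1 of 12. None of these 3 genes had a gained region. The strongest lost region of each lay close to a Si1235 H3K27ac peak, at 67 bp (TGFB2), 347 bp (TNC) and 282 bp (TGFBR2). Of all lost regions, 25.9% had such a peak within 1 kb.

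Of basal and myoepithelial markers, 7 of 20 genes had a lost region, with 9 of 155 regions lost (5.81%). TP63, the basal transcription factor, had 2 of 26 and DST, a hemidesmosome plakin, 2 of 27, and most other TP63 and DST regions were kept (20 and 17). The strongest lost region lay 259 bp from a Si1235 H3K27ac peak at TP63 and 1668 bp at DST. TRIM29 and ACTA2, the smooth muscle actin of myoepithelial cells, had 1 of 4 each, 1423 and 12358 bp from such a peak. At ACTA2, H2AZ was at the lost region in neither Si1235 library and in both NC1235 libraries. Of luminal markers, 2 of 19 genes had a lost region (3 of 71 regions, 4.23%), namely ESR1, the oestrogen receptor (2 of 12), and SPDEF, a luminal ETS factor (1 of 4). The strongest lost region lay 235 bp from a Si1235 H3K27ac peak at ESR1 and 3607 bp at SPDEF.

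In the signalling lists the shares were below the 5.71% of all regions. They rest on only 3 and 4 lost regions, and the difference was not tested. Of HER2, RAS and PI3K genes, 3 of 26 had a lost region (3 of 85 regions, 3.53%). The one at MTOR, the growth-controlling kinase (chr1:11134841-11135894), was the strongest of these, with fold enrichments of 11.5 and 12.4. It had H3K9ac in Si1235 and not in NC1235, and a Si1235 H3K27ac peak lay 558 bp away. PIK3R1 and EGFR had 1 each, 9075 and 6386 bp from a Si1235 H3K27ac peak. H3K9ac was in both arms at the PIK3R1 region and in NC1235 alone at the EGFR one. Of AP-1 and TEAD pathway genes, 3 of 21 had one (4 of 103 regions, 3.88%), at YAP1, the Hippo coactivator (2 of 14), its target CCN2 (1 of 3) and TEAD1 (1 of 17). The strongest lost region lay 933 bp from a Si1235 H3K27ac peak at YAP1, 1098 bp at CCN2 and 14397 bp at TEAD1.

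Of interferon and nucleic acid response genes, 1 of 28 had a lost region, IFIH1, a sensor of double-stranded RNA (1 of 61 regions, 1.64%). The IFIH1 region had H3K9ac in NC1235 alone, and a Si1235 H3K27ac peak lay 13587 bp away. Of replication licensing and fork genes, 1 of 23 had a lost region (1 of 45 regions, 2.22%). MCM10, which activates the replicative helicase, had a single H3K27ac region, and it was lost (chr10:13161588-13161860, fold enrichments 6.22 and 8.61). It lies at the MCM10 start printed above, and H2AZ and H3K9ac had peaks there in every library of both arms. The nearest Si1235 H3K27ac peak was 60260 bp away. Of acetylation genes, 2 of 21 had one (2 of 76 regions, 2.63%), the acetyltransferase CREBBP (1 of 3) and the deacetylase HDAC5 (1 of 11). At both, H2AZ and H3K9ac peaks were in every library. A Si1235 H3K27ac peak lay 311 bp from the CREBBP region and 237 bp from the HDAC5 one. Gained regions made up 6.58% of the regions of this list, against 3.94% of all. No lost region was found at the 17 p53 targets (0 of 39 regions) or the 20 adhesion and matrix genes (0 of 80).

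Markers of other cell types also held H3K27ac regions, and few of these were lost. The 12 immune markers had 0 of 25 regions lost and the 12 endothelial and stromal markers 1 of 26 (3.85%), at THY1, against 5.71% of all regions. Gained regions made up 8.0% and 0.0% of them, against 3.94% of all. These counts are small, and no difference from all regions was tested. H3K27ac cover was taken at the start of KRT8, ERBB2, PTPRC and CD14, and at the more covered end of the other marker genes, whose start is not in the table used. It was 69.3% to 100.0% at all 6 epithelial markers, KRT8, KRT18, KRT19, EPCAM, CDH1 and ERBB2, in all 4 libraries. PTPRC, PECAM1, VWF, COL3A1, DCN and LUM had 0.0% in all 4. CD3E had 57.2% and 52.4% in Si1235, against 23.2% and 24.0% in NC1235, and CD14 and CDH5 had between 18.8% and 41.9%. Whether other cells contributed to any lost region was not tested.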

How the data were processed

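Chromatin immunoprecipitation libraries of HCC1954 cells were grouped by the arm, mark and replicate in their titles, and 15 of the 17 samples had a peak list (the inputs had none used here). The submitters' processing notes name Bowtie2 2.2.9, MACS2, HTSeq 2.0.3, DESeq2 1.22.2 and hg38, without roles or parameters. The deposited lists give each peak a fold enrichment (a ratio) and −log10 p and q values, per library, in the peak caller's format. All lists end at a −log10 q of about 2. Read depth is unknown from the lists, and peaks per library ranged from 40955 to 122190.

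Peaks on autosomes were merged and classed with Python 3.11.15, pandas 2.3.3 and numpy 2.4.6. A region has a mark where a peak overlaps it. Cover is the percent of its length under peaks. Cover was tested with limma 3.58.1 (trend, Si1235 minus NC1235, no block, mean cover of at least 5%, Benjamini-Hochberg) over all regions, and shares with exact permutations (scipy 1.17.1). On simulated cover with the spread of these libraries, the fit recovered the direction of large changes but called none of them. Starts came from RefSeq promoters (26246 genes), and 10252 genes without one were placed by both ends. Motifs were to be counted in the regions, but no genome sequence was used here, so they were counted in promoter windows. Regions were named by fixed rules (strongest, strongest at coding starts, widest, largest differences in other marks, fullest bins, genes and runs, strongest ChIRP, list members), and not every one is described. The members and lists were chosen with earlier results of these data known. Alternatives covered peak strength, merging, list size, libraries left out, windows and normalization.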

Additional observations from a re-analysis of the deposited data

How the results depend on the processing

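The number of lost regions stayed within 1.5 times under a −log10 q of at least 5 (2738), merging of peaks up to 500 bp apart (2056), equal list sizes (2666) and a stricter cover rule, with at least 50% of the region under peaks (2598). Leaving out 1 H3K27ac library gave 3706 to 5866, since a rule over 3 lists is looser: 4350 without the first Si1235 library, 5866 without the first NC1235 library and 4398 without the second. The share at a gene start was 6.85% to 9.77% over these omissions, and 12.9% with a window of 2.5 kb. The share with another lost region within 50 kb was 41.7% to 51.4% with a library left out, 34.8% at a −log10 q of at least 5 and 23.1% with merging. It was 24.2% within 10 kb and 60.6% within 200 kb.

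The H2AZ share stayed lower in Si1235 under all 8 alternatives, from −13.7 to −7.45 points. The smallest difference is without the second Si1235 library. With equal numbers of H2AZ peaks per library, an alternative chosen after seeing the data, it was −7.98 points. The H3K36me3 difference changed sign at a −log10 q of at least 5 (0.018 points) and with peaks within 500 bp (0.035), and ran from −0.367 to 0.0873 with a library left out (0.0175 without the second Si1235 library). The H3K9ac difference was 5.73 points and became 8.97 with peaks within 500 bp. Cover calls by limma among lost regions were 0 in both marks except with a library left out, where the lone library of an arm is assumed to vary like the other arm. They then ran from 0 to 324 for H2AZ and from 6 to 19 for H3K36me3. The H2AZ calls were 33 without the first Si1235 library (1.26% of all tested regions called) and 324 (320 lower, 4 higher) without the second NC1235 library (7.70% of all). For H3K36me3 the share of all tested regions called was 0.984% to 7.09%. The cause was not tested.

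Replicate numbers are shared between arms, but region by region same-numbered libraries deviated together only weakly (correlation 0.0577 for H2AZ and 0.0382 for H3K36me3). Library totals moved together more. Peaks of H2AZ covered 43.6 and 36.1 Mb in NC1235 libraries 1 and 2, and 42.9 and 34.3 Mb in Si1235. For H3K36me3 these were 140 and 115 Mb, and 137 and 121 Mb. For H3K27ac they did not move together (67.2 and 67.6 Mb, and 68.0 and 63.6 Mb). Whether the numbers mark a shared batch was not tested. The fit with the replicate block called 0 lost regions for H2AZ and 0 for H3K36me3. Weak peaks and unknown depth limit every absence of a peak, which means below the caller's threshold.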

Other observations

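The widest lost region lay between genes on chromosome 2, 294317 bp from KCNJ3, a potassium channel gene (chr2:155152671-155155695, 3025 bp). Its H3K27ac fold enrichments were 8.87 and 8.61 in NC1235, and a Si1235 H3K27ac peak lay 743 bp away. H3K9ac covered 23.5% of it in Si1235 and none in NC1235. One in DPH6, a gene of diphthamide synthesis (chr15:35304926-35307444, 2519 bp), had 7.58 and 5.12. Another 2 of the 5 widest lay in LINC01362 and are part of its run of 6. One in PACSIN2, a membrane-shaping protein gene (chr22:42917891-42920168, 2278 bp), had 7.65 and 7.59, with H3K9ac at 37.9% in Si1235 and 7.59% in NC1235.

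The lost regions were also split into 4 parts of similar size by the lower of their 2 fold enrichments. In the strongest part (697 regions, 5.97 to 20.6) H2AZ peaks were at 26.1% and 20.1% in Si1235, against 39.3% and 33.6% in NC1235. In the weakest (726 regions, 2.05 to 4.13) they were at 25.5% and 20.5% in Si1235, against 32.9% and 28.5% in NC1235. H3K9ac was at 45.1% in Si1235 and 35.9% in NC1235 in the strongest part, and at 39.9% and 33.5% in the weakest. The share at a gene start was 7.75% in the strongest and 6.89% in the weakest part.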
